A study of Mus musculus with 7 samples.

Results

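The genes described here are *Apoa1*, *Apoa2*, *Apoa4*, *Apoa5*, *Apob*, *Apoc1*, *Apoc2*, *Apoc3* and *Apoe*, which encode apolipoproteins, and *Mttp*, which encodes the microsomal triglyceride transfer protein. They were taken by symbol from the deposited table of read counts. All 10 were present among its 14819 rows, and all 10 were among the 14779 genes that passed the expression filter and were tested. The study compared primary hepatocytes, the main epithelial cells of liver tissue, from male wild-type (WT) mice and from mice with a whole-body deletion of part of *Wdr6* made by CRISPR (WDR6-WKO). The cells were released by collagenase perfusion, cultured overnight in William's E medium with fetal bovine serum, given no treatment and sequenced as 4 WT and 3 WDR6-WKO libraries. *Wdr6* encodes a WD40-repeat protein and was targeted in the whole animal, so the genotype of hepatocytes cannot be separated here from that of the rest of the animal. The study's general methods name C57BL/6J mice, and give neither the background of the WDR6-WKO line nor the age at hepatocyte isolation separately. Libraries were described as independent experiments, and p-values measure the spread between these 7 samples.

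Apolipoproteins are the protein shell of lipoproteins, the particles that carry triacylglycerol and cholesterol in plasma. In hepatocytes, apolipoprotein B takes up lipid in the endoplasmic reticulum with the help of *Mttp* and leaves the cell as very-low-density lipoprotein (VLDL), whereas apolipoprotein A-I forms high-density lipoprotein (HDL) with lipid handed over by the transporter ABCA1. The small exchangeable apolipoproteins move between particles and regulate lipoprotein lipase, receptor uptake and particle size.

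Levels below are TMM-scaled CPM, in which every library is brought to one common total. *Wdr6* stood at 40.6 to 49.0 CPM in the WT libraries and at 2.23 to 2.58 CPM in the WDR6-WKO libraries (log2 fold change −4.20 ± 0.11 (s.e.), adjusted p = 3.4e-12, edgeR quasi-likelihood test), as labelled. The libraries held 17816913 to 23668940 counted reads. WDR6-WKO replicate 3 stood apart from the other 2 WDR6-WKO libraries, with a chi-square per gene of 14.4 and 16.2 against them, where the other pairs of one genotype gave 3.84 to 8.34. In the tenth of genes with the highest GC content, the median difference from the WT mean on the log2 scale was 0.139 in WDR6-WKO replicate 1, 0.152 in replicate 2 and −0.106 in replicate 3, and between −0.037 and 0.066 in the WT libraries. In the tenth of shortest transcripts these medians were 0.128, 0.201 and 0.017. Most of the genes described have GC-rich transcripts and several are short, so the fold change of each of the 10 genes is given with all libraries, without WDR6-WKO replicate 3, and with the trends on GC content and transcript length removed from each library. The part of these properties in the differences was not tested further. The hepatocyte label was checked against 12 markers, of which 11 were tested and *Tf* was not in the table. The highest, *Alb*, stood at 6360 to 7934 CPM in WT and 6087 to 6803 CPM in WDR6-WKO. The lowest, *Tat*, stood at 0.954 to 2.13 CPM in WT and 0.503 to 1.16 CPM in WDR6-WKO. *Cyp2e1* was also low, at 16.6 to 19.6 CPM in WT and 13.3 to 14.9 CPM in WDR6-WKO. Summed CPM of the 11 markers was 11835 to 14139 in WT and 10075 to 10848 in WDR6-WKO. At an adjusted p below 0.05, 7 were lower and 0 higher, where 6.18% of all genes were lower and 6.65% higher. Their log2 fold changes ran from −0.05 for *Ttr*, which was not called, to −0.97 for *Ahsg*. The number of hepatocytes and the RNA per hepatocyte cannot be told apart in such bulk samples, and the cause of the lower sum was not tested.

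Of the 10 genes, 4 changed at an adjusted p below 0.05, against 12.8% of all genes tested. *Apoa1* and *Mttp* were lower in WDR6-WKO hepatocytes, against 6.18% of all genes, and *Apoa4* and *Apoa2* were higher, against 6.65%. The other 6 did not pass the test with all libraries. No WDR6-WKO library entered the CPM range of WT for *Apoa1*, *Apoa4* and *Mttp*, and 23.5% of all genes had such separate ranges. By the study's criteria for differential expression (log2 fold change of 0.35 or more in either direction and unadjusted p below 0.05), 3 of the 10 were differentially expressed, *Apoa4* and *Apoc1* as higher and *Apoa1* as lower, against 10.4% of all genes. The median log2 fold change was 0.12 over the 10 genes and 0.01 over all genes tested. With library sizes alone in place of TMM scaling, the calls over all genes split into 1212 higher and 696 lower rather than 983 and 914, and the same counts of 2 higher and 2 lower were found among the 10 genes.

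**Figure D1:**
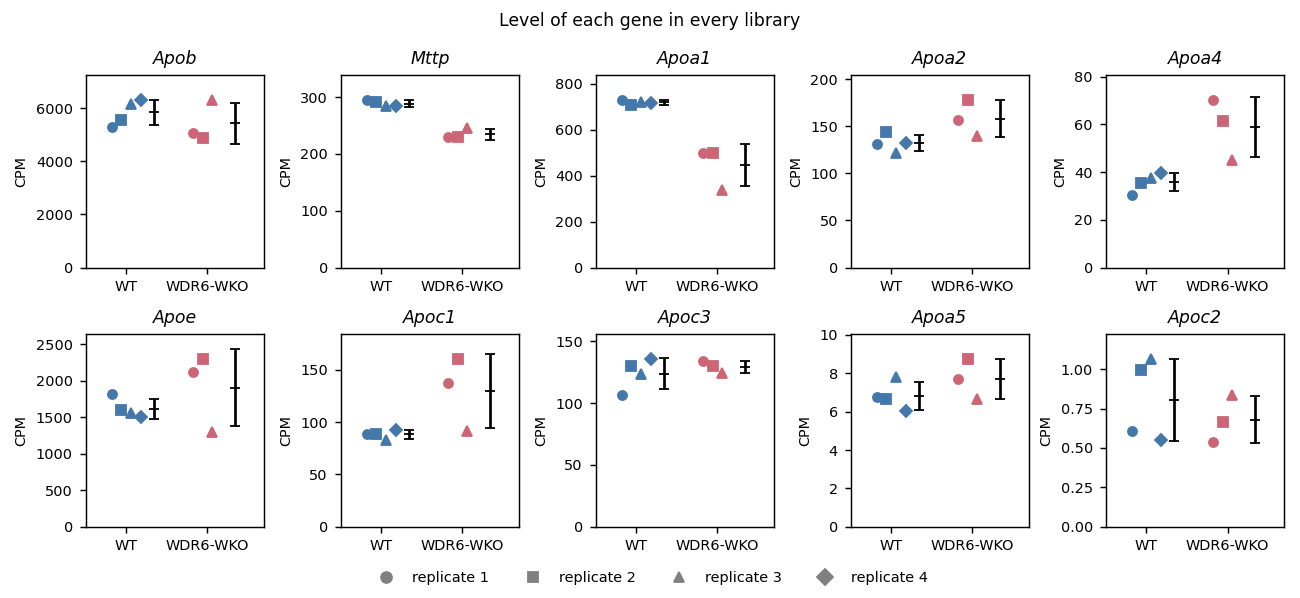
Level of each gene in CPM (vertical axis, from 0) in the 4 WT (blue) and 3 WDR6-WKO (red) libraries. Symbols stand for the replicate number and the black bars for the mean and s.d. The ranges are separate for *Mttp*, *Apoa1* and *Apoa4*, and WDR6-WKO replicate 3 (triangle) lies below the other 2 WDR6-WKO libraries for *Apoe* and *Apoc1* and above them for *Apob*.

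The sequences around the RefSeq starts of the 3 apolipoprotein A genes that passed the test are shown first, since *Apoa1* and *Apoa4* lie close together and differed in opposite directions. They run from 250 bases before to 50 bases after the RefSeq start (GRCm38.p6), 5′ to 3′ on the plus strand, on which all 3 genes lie. Capitals mark matches, searched on both strands, to TATAAA, the core promoter element known as the TATA box, to CAAAGTCCA or CAAAGTTCA (letters bound by HNF4 factors) and to TGTTTAC or TGTTTGC or TATTTAC or TATTTGC (letters bound by forkhead factors). The motifs were chosen after the values and sequences had been seen.
*Apoa1*, chr9:46228380-46228679: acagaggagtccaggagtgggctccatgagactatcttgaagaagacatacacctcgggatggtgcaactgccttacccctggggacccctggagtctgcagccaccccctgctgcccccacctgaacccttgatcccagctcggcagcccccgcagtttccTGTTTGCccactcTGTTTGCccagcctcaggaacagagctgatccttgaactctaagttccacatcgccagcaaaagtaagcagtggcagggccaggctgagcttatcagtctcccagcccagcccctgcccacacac
*Apoa4*, chr9:46240594-46240893: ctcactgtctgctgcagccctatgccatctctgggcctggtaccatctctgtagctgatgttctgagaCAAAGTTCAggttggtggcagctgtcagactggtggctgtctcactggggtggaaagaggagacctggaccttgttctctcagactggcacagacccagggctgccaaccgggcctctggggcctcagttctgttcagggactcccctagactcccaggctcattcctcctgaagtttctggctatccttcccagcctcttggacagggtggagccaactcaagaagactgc
*Apoa2*, chr1:171224804-171225103: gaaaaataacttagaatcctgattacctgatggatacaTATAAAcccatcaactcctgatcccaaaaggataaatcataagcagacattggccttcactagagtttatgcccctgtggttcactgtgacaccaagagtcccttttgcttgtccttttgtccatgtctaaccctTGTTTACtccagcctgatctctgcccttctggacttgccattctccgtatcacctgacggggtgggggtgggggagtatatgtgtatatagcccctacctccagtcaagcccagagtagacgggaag

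Positions count from 0 at the RefSeq start. The *Apoa1* window held the forkhead letters TGTTTGC at −88 and −75, the *Apoa4* window the HNF4 letters CAAAGTTCA at −182, and the *Apoa2* window TATAAA at −212 and the forkhead letters TGTTTAC at −77. Among 32851 RefSeq promoters of this length, 13.62% held TATAAA, 0.86% held either HNF4 sequence and 13.53% held a forkhead sequence. Forkhead letters also stood in the windows of *Mttp* (at −185), *Apoa5* (at −100) and *Apob* (at −121), of which the last 2 genes did not pass the test with all libraries. TATAAA also stood in the windows of *Apoa5* (at −56) and *Apob* (at −60). The windows of *Apoc2* and *Apoe* held no match, and *Apoc1* and *Apoc3* had no window among these promoters. The RefSeq start of *Mttp* lies 12041 bases from the start of its principal GENCODE transcript, so its window is not at the start of that transcript. A match describes the letters only. The RefSeq starts of *Apoa1* and *Apoa4* lie 50 and 148 bases downstream of the starts of their principal GENCODE transcripts, so that much of the *Apoa4* window lies inside the gene as GENCODE gives it, and the start of *Apoa2* is the same in both.

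VLDL assembly rests on *Apob* and *Mttp*. *Mttp*, whose product loads lipid onto nascent apolipoprotein B, lies on the minus strand of chr3:138089854-138144968 (GRCm38) with 18 exons in its principal transcript. Of its exon bases, 9.5% overlap *Gm43691* and *Trmt10a* on the opposite strand, whose reads cannot be told apart where strand was not used in counting. It stood at 296, 291, 284 and 285 CPM in the WT libraries, in order of replicate number here and throughout, and at 229, 229.98 and 246 CPM in the WDR6-WKO libraries. Every WDR6-WKO library was below every WT library, with a mean of 235 ± 9.72 CPM (s.d., n = 3) against 289 ± 5.50 CPM (s.d., n = 4), or 81.4% of the WT level. The difference on the log2 scale was −0.30 ± 0.05 (s.e.; 95% confidence interval −0.40 to −0.20; adjusted p = 0.000514, edgeR). It was −0.33 without WDR6-WKO replicate 3 and −0.27 with the trends removed. Exact permutation of the 7 libraries (two-sided) gave p = 0.0286, the smallest that 35 splits allow. *Mttp* had the smallest p of the 10 genes, and its pattern over the 7 libraries was closest to those of *Cdc73*, *Enox2* and *Adam12*, with mean absolute differences of 0.0181, 0.0196 and 0.0208 in centred log2 CPM.

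*Apob*, the structural protein of VLDL, is encoded on chr12:7977648-8016835 by 29 exons and had the longest transcript of the 10, at 13934 bases. It took 5313, 5576, 6166 and 6325 CPM in WT and 5087, 4896 and 6302.5 CPM in WDR6-WKO. WDR6-WKO replicates 1 and 2 were below every WT library, whereas replicate 3 was within the WT range. The fold change did not pass the test (log2 fold change −0.11 ± 0.09 (s.e.); 95% confidence interval −0.31 to 0.09; adjusted p = 0.489, edgeR). It passed without WDR6-WKO replicate 3, at −0.23 (adjusted p = 0.0175, edgeR), and was 0.01 (adjusted p = 0.94, edgeR) with the trends removed. Whether *Apob* was lower in WDR6-WKO thus depended on these choices. *Apob* had the lowest GC content of the 10 transcripts, 43.55%, where *Mttp* has 45.87% and the other 8 have 51.93 to 59.52%. The ratio of *Apob* to *Mttp* counts was 17.98 to 22.2 in WT and 21.3 to 25.6 in WDR6-WKO, with overlapping ranges.

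Apolipoproteins A-I and A-II are the main proteins of HDL. *Apoa1* (chr9:46228580-46230466, plus strand, 4 exons) stood at 730.3, 707, 721 and 717 CPM in WT and at 499, 500.1 and 339 CPM in WDR6-WKO. The WT libraries were close to each other, and every WDR6-WKO library was far below them, replicate 3 the most. The mean was 446 ± 92.6 CPM (s.d., n = 3) in WDR6-WKO and 719 ± 9.64 CPM (s.d., n = 4) in WT, or 62.0% of the WT level. The log2 fold change was −0.69 ± 0.13 (s.e.; 95% confidence interval −1.0 to −0.38; adjusted p = 0.0160, edgeR), with an exact permutation p of 0.0286. It was −0.53 without WDR6-WKO replicate 3 and −0.81 with the trends removed, and passed the test in both fits.

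*Apoa2* (chr1:171225054-171226379, plus strand, 4 exons) stood at 131, 144, 122 and 132 CPM in WT and at 156, 178 and 139.6 CPM in WDR6-WKO. WDR6-WKO replicate 3 fell within the WT range, and the other 2 WDR6-WKO libraries were above it. The log2 fold change was 0.26 ± 0.07 (s.e.; adjusted p = 0.0352, edgeR), and an exact permutation test gave p = 0.0857. The call was lost with the trends on GC content and length removed (0.12, adjusted p = 0.0599, edgeR) and on leaving out WT replicate 1, 3 or 4 or WDR6-WKO replicate 1 or 2, whereas the log2 fold change was 0.34 (adjusted p = 0.000168, edgeR) without WDR6-WKO replicate 3.

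Apolipoprotein A-IV is an exchangeable apolipoprotein made mainly by the intestine and, in mice, also by the liver. *Apoa4* (chr9:46240696-46243459, plus strand, 3 exons) stood at 30.5, 35.6, 37.4 and 39.7 CPM in WT and at 70.3, 61.2 and 45.2 CPM in WDR6-WKO. All WDR6-WKO libraries were above all WT libraries, and replicate 3 was the nearest to them. The mean was 58.9 ± 12.7 CPM (s.d., n = 3) in WDR6-WKO, against 35.8 ± 3.90 CPM (s.d., n = 4) in WT. The log2 fold change was 0.72 ± 0.14 (s.e.; 95% confidence interval 0.39 to 1.05; adjusted p = 0.0127, edgeR; exact permutation p = 0.0286). It was 0.88 without WDR6-WKO replicate 3 and 0.65 (adjusted p = 0.0249, edgeR) with the trends removed, and the call was lost without WDR6-WKO replicate 2 (0.70, adjusted p = 0.0654, edgeR). Of the exon bases of *Apoa4*, 69.8% overlap the predicted genes *Gm10680* and *Gm47528* on the opposite strand. The strand setting of the counting was not given in the sources used here, so reads of these genes cannot be told apart from those of *Apoa4*.

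As *Apoa1* and *Apoa4* differed in opposite directions, the ratio of *Apoa1* to *Apoa4* counts, which needs no scaling between libraries, was 18.1 to 23.9 in WT and 7.10 to 8.17 in WDR6-WKO. These ranges had to be separate, because those of both genes were, and the ratio gives only the size of the shift.

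**Figure D2:**
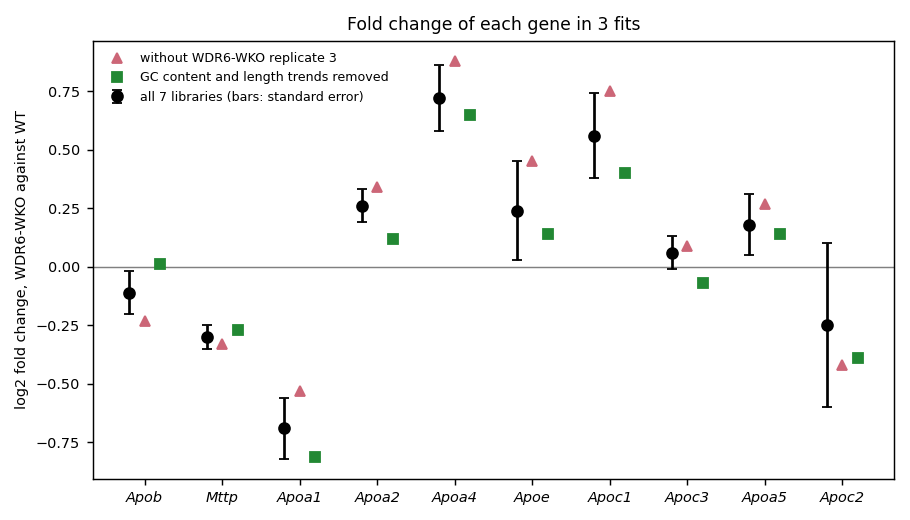
Log2 fold change of WDR6-WKO against WT (vertical axis) for each gene in the fit with all 7 libraries (black, bars are standard errors), without WDR6-WKO replicate 3 (red triangles) and with trends on GC content and transcript length removed (green squares). *Apoa1* and *Mttp* lie below 0 and *Apoa4* above 0 in all 3 fits, whereas *Apob* and *Apoc3* change sign with the trends removed.

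Apolipoprotein E is the ligand through which remnant particles bind receptors on hepatocytes. *Apoe* (chr7:19696109-19699188, minus strand, 4 exons) stood at 1809.9, 1600.1, 1555 and 1501 CPM in WT and at 2122, 2294 and 1299.7 CPM in WDR6-WKO. WDR6-WKO replicates 1 and 2 were above every WT library and replicate 3 below every WT library, so the WDR6-WKO libraries lay on both sides of the WT range. On the log2 scale the fold change was 0.24 ± 0.21 (s.e.; 95% confidence interval −0.29 to 0.76; adjusted p = 0.534, edgeR), with an exact permutation p of 0.4. Without WDR6-WKO replicate 3 it was 0.45 (adjusted p = 0.000375, edgeR), and with the trends removed it was 0.14 (adjusted p = 0.584, edgeR). WDR6-WKO replicate 3 was 0.76 below the mean of the other 2 on the log2 scale.

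Macrophages of the liver also make apolipoprotein E. Of 15 markers of Kupffer cells and macrophages, 5 were higher in WDR6-WKO at an adjusted p below 0.05 and 0 were lower. Over all genes tested, 6.65% were higher and 6.18% lower. The 5 were *Lyz2* (log2 fold change 0.64), *Fcgr1* (0.75), *Ctss* (0.47), *C1qc* (0.48) and *C1qb* (0.30). The call of *C1qb* was lost in 6 of 16 alternatives (adjusted p up to 0.118, edgeR), among them the removal of trends (adjusted p = 0.0646, edgeR). Its level in WDR6-WKO replicate 3, 72.2 CPM, was within the WT range of 61.6 to 72.9 CPM. Summed CPM of the 15 was 973 to 1087 in WT against 1269, 1355 and 1145 in replicates 1 to 3 of WDR6-WKO. The defining markers *Clec4f* and *Vsig4* stood at 111 to 125 and 69.2 to 88.7 CPM in WT. In WDR6-WKO they stood at 120 to 138 and 84.0 to 106 CPM, and neither passed the test. Macrophage RNA was thus present in both genotypes. *Timd4* alone of the 15 had a negative log2 fold change (−0.48, adjusted p = 0.0880, edgeR). The summed level was higher in WDR6-WKO replicate 3 than in every WT library, while *Apoe* was lower there. Its part in the *Apoe* level was not tested.

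Apolipoprotein C-I slows lipid uptake from particles. *Apoc1* (chr7:19689481-19692660, minus strand, 3 exons) stood at 89.0, 89.0, 82.7 and 92.2 CPM in WT and at 137, 160.04 and 91.3 CPM in WDR6-WKO. Replicates 1 and 2 of WDR6-WKO were well above WT and replicate 3 lay within the WT range. The log2 fold change of 0.56 ± 0.18 (s.e.; 95% confidence interval 0.11 to 1.0) did not pass after adjustment (p = 0.108, edgeR), nor did an exact permutation test (p = 0.0571). It passed with DESeq2 (0.55, adjusted p = 0.0323), with limma-voom (0.52, adjusted p = 0.0248) and without WDR6-WKO replicate 3 (0.75, adjusted p = 2.8e-11, edgeR), and was 0.40 (adjusted p = 0.0875, edgeR) with the trends removed. The ratio of *Apoe* to *Apoc1* counts was 14.2 to 15.5 in WDR6-WKO and 16.3 to 20.3 in WT. Both genes were lower in WDR6-WKO replicate 3 than in the other 2 WDR6-WKO libraries, *Apoc1* to a level within the WT range and *Apoe* to one below it.

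Apolipoprotein C-III inhibits lipoprotein lipase and hepatic uptake. *Apoc3* (chr9:46232933-46235636, minus strand, 4 exons) stood at 106, 129.8, 123 and 136 CPM in WT and at 134, 129.6 and 124 CPM in WDR6-WKO. All WDR6-WKO libraries were within the WT range. Its log2 fold change was 0.06 ± 0.07 (s.e.; 95% confidence interval −0.09 to 0.21; adjusted p = 0.608, edgeR), and it was 0.09 without WDR6-WKO replicate 3. Its sign turned with the trends removed (−0.07) and without WT replicate 1.

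Apolipoproteins C-II and A-V activate lipoprotein lipase, and both genes were low in these cells. *Apoa5* (chr9:46268633-46271919, plus strand, 4 exons) stood at 6.76, 6.65, 7.82 and 6.02 CPM in WT and at 7.69, 8.74 and 6.65 CPM in WDR6-WKO, with overlapping ranges (log2 fold change 0.18 ± 0.13 (s.e.), 95% confidence interval −0.10 to 0.46, adjusted p = 0.410, edgeR). It was 0.27 without WDR6-WKO replicate 3 and 0.14 with the trends removed, and passed the test in neither fit. *Apoc2* (chr7:19671579-19677941, minus strand, 5 exons) had 12, 19, 20 and 11 reads in WT and 13, 14 and 15 in WDR6-WKO. With so few reads, the 95% confidence interval of its log2 fold change ran from −1.0 to 0.49 (estimate −0.25, adjusted p = 0.686, edgeR). The estimate was −0.42 without WDR6-WKO replicate 3 and −0.39 with the trends removed, again without passing the test. Of its exon bases, 79.5% lie in the same-strand gene *Gm44805*, which has no row in the table, so its count is uncertain. Of the exon bases of *Apoa5*, 20.8% overlap a gene on the opposite strand.

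Compared per length of the principal transcript, the WT levels ran from *Apoe* at 1148 CPM per kb through *Apoa1* (695), *Apob* (419), *Apoa2* (255), *Apoc3* (235), *Apoc1* (166), *Mttp* (72.9), *Apoa4* (19.7) and *Apoa5* (2.71) to *Apoc2* (1.11). Only *Apoa2* and *Apoc3* had overlapping ranges among neighbours in this order. The order of the means was the same in WDR6-WKO, where *Apoa1* and *Apob*, at 431 and 389.6 CPM per kb, overlapped, as did *Apoc3* and *Apoc1*. The 10 genes took 0.846 to 0.916% of counted reads in WT and 0.854 to 0.864% in WDR6-WKO, of which *Apob* alone made up 62.4 to 68.5% in WT and 57.9 to 73.3% in WDR6-WKO. *Clu*, which encodes apolipoprotein J, was higher per length than all 10, at 11779 CPM per kb in WT.

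The genes on chromosome 9 and chromosome 7 lie in clusters. *Apoa1*, *Apoc3*, *Apoa4* and *Apoa5* span 43.3 kb, and within 200 kb of them 3 other genes were tested, with log2 fold changes of −0.06 to 0.17 and 0 called. Within the cluster, the difference was −0.69 for *Apoa1*, 0.06 for its neighbour *Apoc3* and 0.72 for *Apoa4*. *Apoc2*, *Apoc4*, *Apoc1* and *Apoe* span 27.6 kb on chromosome 7, and 3 of 18 other genes within 200 kb were lower, *Clptm1*, *Cblc* and *Bcl3*, with 0 higher, where 6.18% of all genes were lower.

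**Figure D3:**
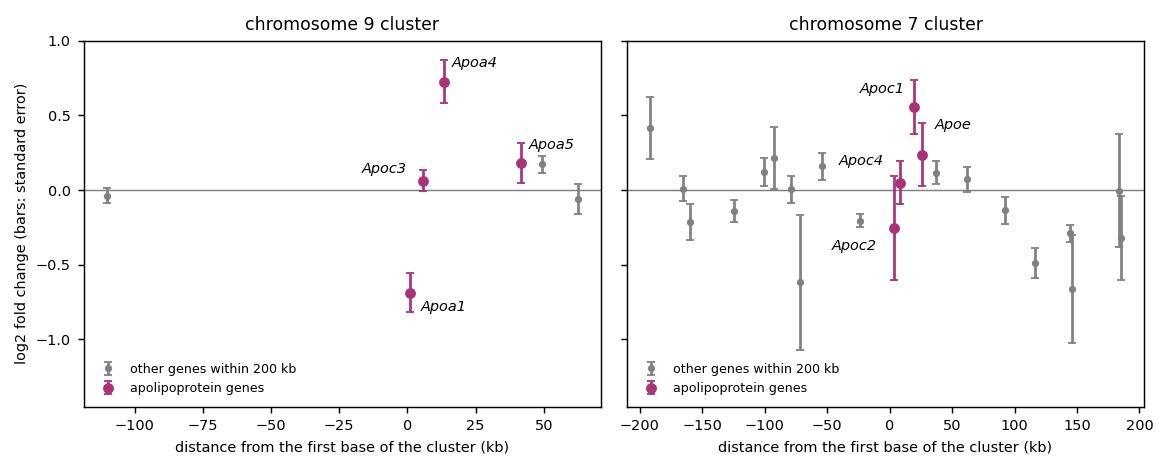
Log2 fold change of WDR6-WKO against WT (vertical axis, bars are standard errors) by the distance of each gene's midpoint from the first base of its cluster in kb (horizontal axis), for the clusters on chromosome 9 (left) and chromosome 7 (right). Purple points are apolipoprotein genes and grey points the other genes tested within 200 kb. *Apoa1* at −0.69 and *Apoa4* at 0.72 are the most distant from 0 on chromosome 9.

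Further genes of the pathway were grouped in lists. Of 9 other apolipoprotein genes tested, 2 were higher and 2 lower (44.4% called, against 12.8% of all genes tested), with a median log2 fold change of −0.05. *Apom*, which carries sphingosine-1-phosphate on HDL, fell from 63.3–76.9 CPM in WT to 34.6–41.8 CPM in WDR6-WKO (log2 fold change −0.84, adjusted p = 4.0e-06, edgeR), and *Apon* fell by 0.42 on the log2 scale. *Apol9a* (1.59) and *Apol9b* (1.36) rose. These apolipoprotein L genes are close copies, with 57.5% and 51.4% of their 50-base sequences found in other genes, so their reads may be split between them. The count called on this list was 5 without WDR6-WKO replicate 3 and 6, of which 4 were lower, with the trends removed. Over all genes tested, 1897 were called with all libraries, 4233 without WDR6-WKO replicate 3 and 2697 with the trends removed. Leaving out any other library gave 1032 to 1401. These totals also stand beside the counts of the lists below. So do the 11 hepatocyte markers tested, of which 7 were lower and 0 higher, with a median log2 fold change of −0.41.

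Of 30 genes for the lipidation of apolipoprotein B, its export and the editing of its transcript, 10 were lower and 1, *Arfrp1*, was higher, with a median of −0.12, where 6.18% of all genes were lower and 6.65% higher. Among the lower genes, those of smallest p were *A1cf* (log2 fold change −0.52), a cofactor of apolipoprotein B transcript editing, *Lpcat3* (−0.28), which makes polyunsaturated phospholipid, *Sort1* (−0.59), a sorting receptor that binds apolipoprotein B, the coat protein gene *Sec31a* (−0.25) and the chaperone gene *Hsp90b1* (−0.25). *P4hb*, which encodes the partner subunit of the *Mttp* product, was also lower (−0.18), as was *Tm6sf2* (−0.34), which promotes VLDL lipidation. *Apobec1*, the editing enzyme, stood at 78.5 to 84.7 CPM in WT and 83.8 to 94.8 CPM in WDR6-WKO (0.14, adjusted p = 0.118, edgeR). The count of genes called ranged from 6 without WDR6-WKO replicate 1 and 7 without WT replicate 2 or WDR6-WKO replicate 2 to 17 without WDR6-WKO replicate 3, and was 15, of which 14 were lower, with the trends removed. The *Arfrp1* call was lost without WT replicate 2, 3 or 4 or WDR6-WKO replicate 1 or 2. Of the exon bases of *Arfrp1*, 10.4% overlap *Zgpat* on the opposite strand.

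Of 15 genes for lipoprotein receptors and uptake, 1 was higher and 1 lower, with a median of 0.01. The share called, 13.3%, was near the 12.8% of all genes tested. *Vldlr*, a receptor for *Apoe*-bearing particles, rose from 6.86–9.19 CPM to 11.4–15.4 CPM (0.63, adjusted p = 0.00435, edgeR), and *Lrp1*, a remnant receptor, fell by 0.19 on the log2 scale. The *Lrp1* call was lost without WT replicate 1, 3 or 4 or WDR6-WKO replicate 2, and 4 genes of the list were called without WDR6-WKO replicate 3 and 3 with the trends removed.

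Of 21 genes for HDL formation and plasma remodelling, 2 were higher and 4 lower (28.6% called, against 12.8% of all genes tested), with a median of −0.11. *Abca1*, which gives lipid to apolipoprotein A-I, fell from 233–271 CPM to 189.7–215 CPM (−0.34, adjusted p = 0.00159, edgeR). *Pon1* (−0.40), an HDL-bound esterase, and *Gpld1* (−0.31) were also lower, whereas *Angptl4* (0.26), an inhibitor of lipoprotein lipase, and *Abcg1* (0.36) were higher. The *Gpld1* call was lost on leaving out any library but WDR6-WKO replicate 3, and the *Abcg1* call on leaving out any but WT replicate 2 and WDR6-WKO replicate 3. Of the exon bases of *Gpld1*, 45.5% overlap *Mrs2* on the opposite strand. The count of 6 fell to 2 without WDR6-WKO replicate 1 or 2 and to 3 without WT replicate 3 or 4, and was 7 without WDR6-WKO replicate 3 and 10, of which 3 were higher, with the trends removed.

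Of 31 transcription factors and co-regulators known to act on these promoters, 10 were lower and 0 higher, with a median of −0.16, where 6.18% of all genes were lower and 6.65% higher. The factors with the smallest p were *Onecut1* (log2 fold change −1.18), *Nr0b2* (−0.82), *Hnf4a* (−0.27), *Foxa1* (−0.28) and *Rora* (−0.33). Of the exon bases of *Onecut1*, 52.8% lie in the same-strand gene *Gm20649*, which has no row in the table, so its count is uncertain. *Hnf4a*, a nuclear receptor of hepatocytes, stood at 375 to 397 CPM in WT and 290.03 to 345 CPM in WDR6-WKO. The same gene is also counted among the hepatocyte markers that were lower. *Foxo1*, which is known to act on *Mttp* and *Apoc3*, had a log2 fold change of −0.26 (adjusted p = 0.0419, edgeR), a call lost on leaving out any library but WT replicate 1 and WDR6-WKO replicate 3. *Creb3l3* had −0.16 (adjusted p = 0.235, edgeR). The count of 10 fell to 6 without WT replicate 2 or WDR6-WKO replicate 2. It rose to 13 without WDR6-WKO replicate 3 and to 15 with the trends removed, and in both of these fits 1 gene was higher. Calls over all genes tested rose in these fits too, from 1897 to 4233 and to 2697.

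**Figure D4:**
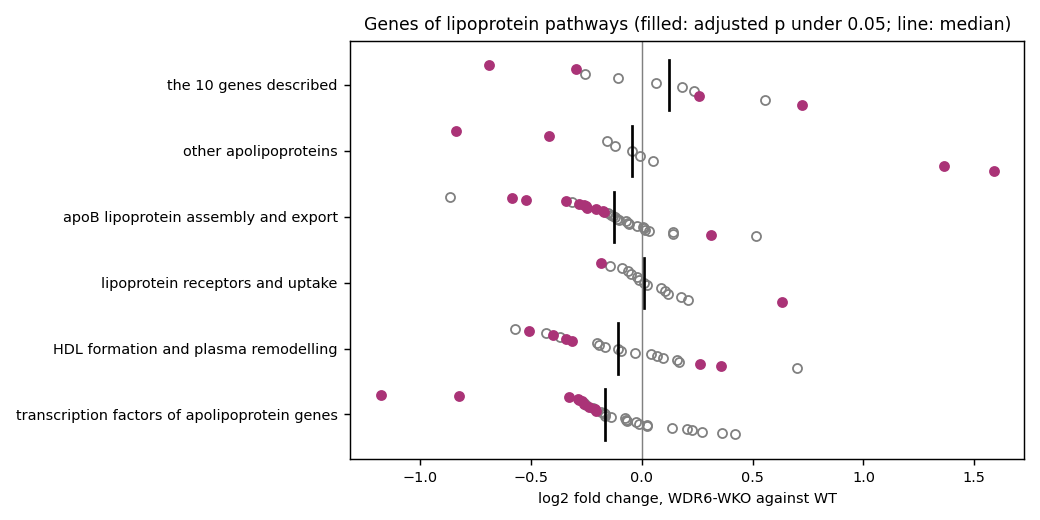
Log2 fold change of WDR6-WKO against WT (horizontal axis) for the genes described and the 5 lists of the pathway (rows). Each point is a gene, filled where the adjusted p is below 0.05, and the black line is the median of the list. The list of transcription factors has 10 filled points, all below 0, and a median of −0.16.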

How the data were processed

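RNA of primary hepatocytes was measured by RNA sequencing in 4 WT and 3 WDR6-WKO libraries. The authors prepared libraries with a NEBNext Ultra kit, sequenced them on an Illumina HiSeq platform, aligned reads to the mouse genome (mm10) with Bowtie 2.2.3, as the submitters' processing notes give it, and deposited unnormalized read counts for each gene symbol. The counting tool, its annotation and its strand setting are not given in the sources used here. The table holds 14819 rows, none with fewer than 50 reads over the 7 libraries, of which 21 carry dates in place of symbols.

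Counts were scaled (TMM), filtered with filterByExpr and tested with edgeR 4.0.16 (R 4.3.3) by the robust quasi-likelihood test of genotype over 14779 genes, with Benjamini-Hochberg adjustment over all of them. Library totals of 17816913 to 23668940 reads and a biological coefficient of variation of 7.4% set the precision. Single genes were also tested by exact permutation of mean log2 CPM (prior count 2). The edgeR, limma-voom and DESeq2 fits were first run on simulated counts in which 200 genes were changed. The permutation test and the removal of trends were not run on them. Gene models and overlaps came from the GENCODE annotation of GRCm38, with 14687 of 14779 symbols matched, and promoters from RefSeq (GRCm38.p6). Alternatives were DESeq2 1.42.0, limma-voom (limma 3.58.1), other scalings, filters and fold thresholds, a replicate block, each library left out, a pseudocount of 1 in the permutation test and, added after seeing the data, lowess trends on GC content and transcript length removed per library. Samples with the same replicate number did not deviate together, so no block was used.

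All 10 genes were named, with *Wdr6*, the 5 genes of smallest p called in each list, *Apobec1*, *Tm6sf2*, *Abca1*, *Hnf4a*, *Foxo1*, *Creb3l3*, the 3 genes closest to the one of smallest p and the macrophage markers called. *Clu*, *Arfrp1*, *P4hb*, *Alb*, *Ahsg*, *Ttr*, *Tat*, *Cyp2e1*, *Clec4f*, *Vsig4*, *Timd4*, *Spp1* and the genes called near the clusters were named after their values were seen. Some genes of the lists and of this rule are not reported here. The genes and lists were chosen with earlier results of these data known. Markers of stellate cells (739 to 806 CPM in WDR6-WKO, 692 to 754 in WT), sinusoidal endothelial cells (229.7 to 277, 252 to 292), cholangiocytes (3731 to 4322, 3092 to 3385) and leukocytes (1 of 8 tested; 14.2 to 15.2, 12.9 to 16.0) were summed in the same way. Most of the cholangiocyte sum was *Spp1*, at 3464 to 4082 CPM in WDR6-WKO and 2824 to 3139 CPM in WT. Of 8 cholangiocyte markers listed, 6 were tested, and 2 were higher and 1 lower at an adjusted p below 0.05.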

Additional observations from a re-analysis of the deposited data

Results flagged for a closer look

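Of 39 sets of 4 WT libraries examined, 2 had a library apart from the rest, and chance marks about 1 in 20. *Angptl4* stood at 234 CPM in WT replicate 3 and at 207 to 211 CPM in the other WT libraries. *Onecut1* stood at 5.48 CPM in WT replicate 3 and at 4.44 to 4.57 CPM in the others. Groups of 3 libraries were not examined in this way, so WDR6-WKO replicate 3 is described above by its values only.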

How the results depend on the processing

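*Apoa1* and *Mttp* kept their direction and their call in all 16 alternatives run for each, with log2 fold changes of −0.81 to −0.53 (adjusted p up to 0.0404) and −0.33 to −0.27 (adjusted p up to 0.00502), edgeR, DESeq2 or limma. *Apoa4* was called in 14 of 16 and *Apoa2* in 10 of 16. The number of the 10 genes called ran from 2 without WDR6-WKO replicate 2 to 7 without WDR6-WKO replicate 3. For the genes of the 5 lists, 33 with all libraries, it ran from 20 to 46 on leaving out a library (49 with the trends on GC content and length removed). For all genes tested, 1897 with all libraries, it ran from 1032 to 4233 on leaving out a library (2697 with the trends removed). These settings leave out samples, and why WDR6-WKO replicate 3 has this effect was not tested. Differentially expressed members numbered 3, against 5 with no fold threshold and 0 with a threshold of 1 on the log2 scale. The sign of the log2 fold change turned for *Apob* (0.0062) and *Apoc3* (−0.074) with the trends on GC content and length removed. That of *Apoc3* also turned on leaving out WT replicate 1 (−0.0035 to 0.11 over the libraries left out). The causes were not tested. Of 28 called genes that the naming rule took from the lists and the macrophage markers, 20 kept their call in every alternative. The rule mostly picked genes for a small p in these same data, so this count is no check of the calls. With the replicate block, 3 of the 10 genes were called, 1 higher and 2 lower, since *Apoa4* (0.76, adjusted p = 0.106, edgeR) was lost, as were *Lrp1* and *C1qb*, and 1762 of all genes were called. The correlations of deviations between samples with the same number were 0.0396, 0.0202 and 0.0379. The depth limits *Apoc2*, at 11 to 20 reads per library.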
